A study of Homo sapiens with 6 samples.

Results

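The S100 proteins are small calcium-binding proteins, and 10 of their genes were followed here in HCT-116 cells: S100A2, S100A4, S100A6, S100A8, S100A9, S100A10, S100A11, S100A14, S100A16 and S100P. They were chosen by name, as the rows whose symbol equals 1 of these 10, among 60546 gene identifiers in all. Earlier results of these data were known when the list was chosen. The HCT-116 line comes from a human colon carcinoma, is long established, is labelled wild type and was grown in DMEM with 10% FBS. The retroviral vector PMSCV had been put into the cells either with GOLPH3 or empty, the carriers were selected with puromycin, and total RNA was taken with Trizol from 3 generations of each line. Both groups therefore carry the vector and the selection, each is a single selected line, and the number of founding cells is not given in the sources used here. The 6 libraries are called GOLPH3 1, 2 and 3 and Vector 1, 2 and 3 after their titles, which add P8, P12 and P13 to the first group and P12, P11 and P13 to the second. The paper examined how GOLPH3, a Golgi phosphoprotein, bears on metastasis, autophagy and epithelial-mesenchymal transition in colon cancer. It used RNA sequencing of overexpressing and control cells beside western blots, tissue staining, migration assays and zebrafish.

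An S100 protein usually works as a dimer that binds calcium through a pair of EF hands, opens a hydrophobic face and attaches to a target protein. S100A10 is an exception that does not bind calcium and is bound to annexin A2 without it. Inside cells the targets include annexins, myosin heavy chain and ezrin, and outside cells several S100 proteins are ligands of the receptors RAGE and TLR4. Most of the genes lie together on chromosome 1 beside the genes of the epidermal differentiation complex, and several of them are well known from epithelial cells and carcinomas. S100A8 and S100A9 form calprotectin, the main calcium-binding protein of neutrophils, which is measured in stool as a sign of gut inflammation.

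The sequences before the starts of 5 of the genes are shown because these genes neighbour each other and had the largest differences among those with over 50 reads in every library. They are the 250 bases before the first start listed by RefSeq for each gene (assembly GRCh38.p14, 5′ to 3′ on the gene's strand), and capitals mark matches to any of the 3 motifs searched.
S100A14 (chr1:153616326-153616575, minus strand): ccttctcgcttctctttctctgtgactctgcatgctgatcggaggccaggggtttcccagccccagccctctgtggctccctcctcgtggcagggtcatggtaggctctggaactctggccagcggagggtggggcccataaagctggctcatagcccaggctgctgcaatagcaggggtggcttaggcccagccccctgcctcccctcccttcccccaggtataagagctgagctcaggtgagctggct
S100A16 (chr1:153613138-153613387, minus strand): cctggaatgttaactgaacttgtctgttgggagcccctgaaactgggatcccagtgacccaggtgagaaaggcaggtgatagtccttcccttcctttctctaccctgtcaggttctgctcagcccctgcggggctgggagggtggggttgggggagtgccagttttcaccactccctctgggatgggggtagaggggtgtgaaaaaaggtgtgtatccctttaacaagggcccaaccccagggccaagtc
S100A6 (chr1:153535992-153536241, minus strand): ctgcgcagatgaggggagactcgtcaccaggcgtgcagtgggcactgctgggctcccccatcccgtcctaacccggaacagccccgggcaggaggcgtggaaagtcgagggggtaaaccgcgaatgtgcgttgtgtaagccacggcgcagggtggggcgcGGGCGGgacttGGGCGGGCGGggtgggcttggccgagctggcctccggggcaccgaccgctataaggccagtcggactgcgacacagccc
S100A4 (chr1:153545807-153546056, minus strand): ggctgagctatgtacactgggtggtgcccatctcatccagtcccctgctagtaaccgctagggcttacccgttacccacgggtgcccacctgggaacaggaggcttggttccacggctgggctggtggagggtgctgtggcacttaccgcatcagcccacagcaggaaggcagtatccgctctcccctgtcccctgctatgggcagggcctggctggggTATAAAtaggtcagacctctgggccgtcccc
S100A2 (chr1:153565845-153566094, minus strand): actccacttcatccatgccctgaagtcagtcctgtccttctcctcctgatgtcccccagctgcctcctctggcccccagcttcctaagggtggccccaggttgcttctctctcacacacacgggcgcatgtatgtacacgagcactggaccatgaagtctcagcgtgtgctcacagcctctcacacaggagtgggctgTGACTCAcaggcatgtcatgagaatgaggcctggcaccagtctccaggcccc

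The motifs searched on both strands were the AP-1 element TGANTCA, the TATA box TATAAA and the GC box GGGCGG, none of which overlaps another in the windows printed. S100A2 held the AP-1 letters, with the nearest match 45 bases before the start, and none of the other 9 genes did in any listed promoter. Of all 35116 promoters of this length, 6.57% held them. The TATA letters stood 25 bases before the start of S100A4, and 4 of the 10 genes held them (S100A4, S100A8, S100A9 and S100P), against 10.7% of all promoters. S100A6 held 3 matches to the GC box, a pair of which overlap each other, and 5 of the 10 genes held at least 1, S100A16 only in a second listed promoter. Since the shares of all promoters are per promoter, the like counts over the 14 listed promoters of the 10 genes are 1 for AP-1, 5 for the TATA box and 5 for the GC box, the last against 42.6% of all promoters. Overlapping listed promoters of S100A8 share 1 TATA match, which is counted in each of them. The windows of S100A14 and S100A16 shown here held none of the 3 motifs. A match is a run of letters and was not tested as a binding site.

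Between 15708846 and 21900764 reads were assigned to genes per library, and mitochondrial genes took 4.41% to 9.97% of them. The values are normalized reads, which are reads divided by a size factor per library. A gene without reads could still lie at up to 3 reads, or 2.47 to 3.29 normalized reads, and this limit covers counting error only. The GOLPH3 transcript did not set the groups apart in the direction of the labels. Its values were 1629.5, 1272 and 1383 normalized reads for GOLPH3 1, 2 and 3 against 1968, 1892 and 1472 for Vector 1, 2 and 3 (log2 fold change -0.31 ± 0.27 SE, limma adjusted p = 0.609), and the groups keep the names their labels give. By western blot, which measures protein, the paper reports that GOLPH3 overexpression was achieved in its HCT-116 line. Nothing in the labels says that the libraries of a group are separate cultures, so p-values measure the spread between these libraries.

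Marker lists were read to see what else the libraries hold. Of 12 colon epithelial markers, EPCAM, CDH1, KRT8, KRT18 and KRT19 were abundant, whereas KRT20 had 0 reads and CDX1, VIL1 and LGALS4 had at most 5 reads in every library. The summed level of the 12 was 69959 to 138957 normalized reads for the GOLPH3 label and 32117 to 42352 for the Vector label, a sum led by KRT8, KRT18 and KRT19. KRT18 and KRT19 were called higher among 10 tested, where 0.953% of all 26536 genes tested were called higher. Of 11 mesenchymal markers, 10 were tested and 6 were called lower in the libraries labelled GOLPH3, against 4.12% of all genes tested, with sums of 1612 to 2056 against 4156 to 7571. ZEB2 among them had 0 reads in every library labelled GOLPH3. COL1A1 and FN1 led the mesenchymal sum under the GOLPH3 label, and VIM under the Vector label. VIM had 5, 50 and 11 reads in GOLPH3 1, 2 and 3 against 3310, 1509 and 3722 in Vector 1, 2 and 3. CDH2 had 2, 2 and 0 against 697, 255 and 859. By western blot the paper reports more vimentin (VIM) and N-cadherin (CDH2) and less E-cadherin (CDH1) with GOLPH3 overexpression. Here VIM and CDH2 transcripts were lower, and CDH1 was higher without overlap (limma adjusted p = 0.0578). Not every marker followed its list, since CDX2 had a log2 fold change of -0.52 and COL1A1 of 0.91. In bulk RNA a smaller share of cells and less RNA per cell cannot be told apart, and the part of these markers in the S100 results was not tested.

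Among the S100 genes, S100A14 rose in the libraries labelled GOLPH3, and the other 7 tested genes had higher fitted levels without passing the test. The comparison used limma on a log2 scale with 1 added to each value and covered 26536 genes that reached 1 normalized read in 3 or more libraries, 8 of the 10 members among them. With Benjamini-Hochberg adjustment over all of these, 1 of the 8 had an adjusted p under 0.05, where 0.953% of all tested genes were called higher and 5.07% were called in either direction. At an unadjusted p under 0.05, 5 of the 8 were higher (S100A2, S100A4, S100A6, S100A14 and S100A16), against 7.51% of all genes. All 8 log2 fold changes were above 0, as were 50.9% of all, and their median was 1.41 against 0.016 over all tested genes. On the recovered reads edgeR called 2 of 7 tested members higher (S100A6 and S100A14), against 1.48% of all genes, and DESeq2 called 4 of 8 (S100A2, S100A6, S100A14 and S100A16), against 2.67%. An unadjusted p under 0.05 with a log2 change over 1 picked 4 of the 8 as higher, against 5.93% of all genes. The groups did not overlap for S100A6 and S100A14, 2 of the 8, and 9.2% of all tested genes were higher without overlap. Because the list was chosen with earlier results of these data known, these counts and shares describe it and do not test it.

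**Figure D1:**
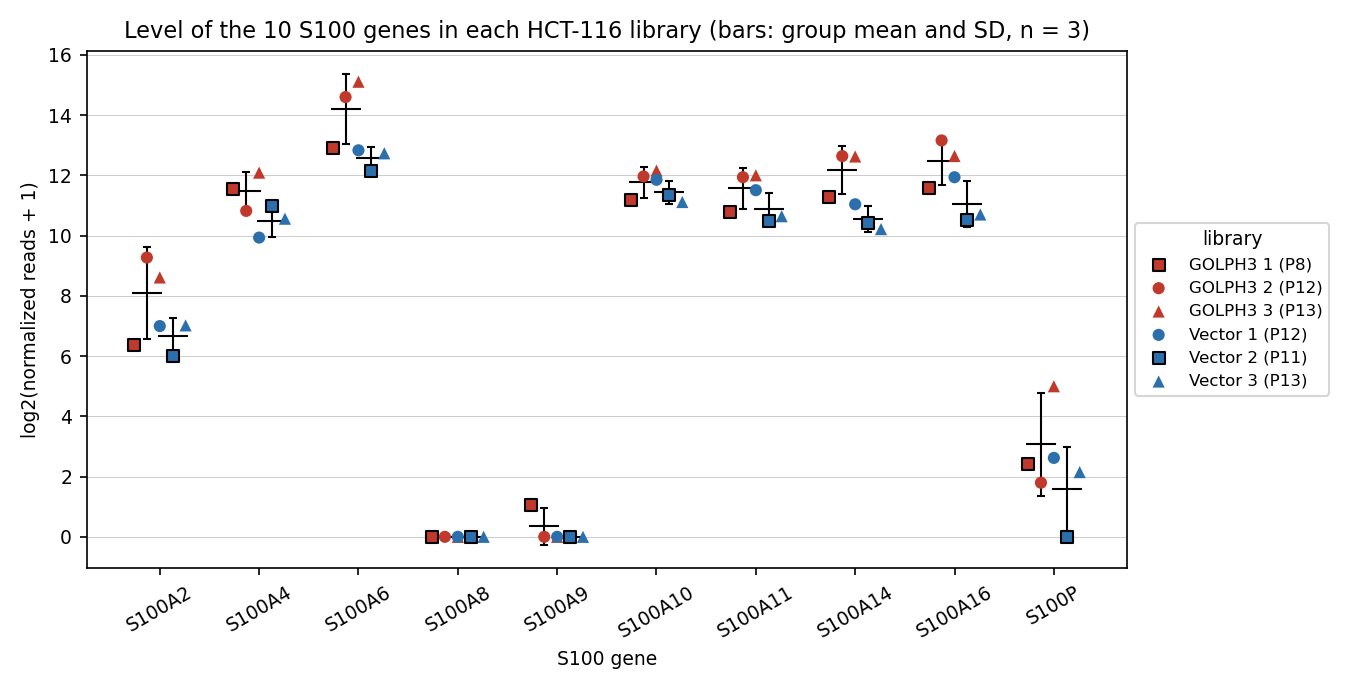
Level of the 10 S100 genes in each of the 6 libraries, as log2(normalized reads + 1), with group means and SD over 3 libraries per group. GOLPH3 1 sits below GOLPH3 2 and 3 in 6 of the 8 tested genes, and S100A8 and S100A9 lie at or near 0.

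S100A14 (ENSG00000189334, chromosome 1, 153614255 to 153616986, minus strand, GRCh38) encodes an epithelial S100 protein. GOLPH3 1, 2 and 3 gave 2472, 6377 and 6317 normalized reads, and Vector 1, 2 and 3 gave 2103, 1362 and 1188. The 3 libraries labelled GOLPH3 were all above the 3 labelled Vector, although GOLPH3 1 exceeded Vector 1 by little. Group means were 5055 ± 2237 and 1551 ± 486 (SD, n = 3), a 3.08-fold difference on the fitted scale. On that scale the log2 fold change was 1.62 ± 0.39 SE (95% confidence interval 0.77 to 2.48, limma adjusted p = 0.0328). The call was lost when any of 4 libraries was left out: GOLPH3 2 (limma adjusted p = 0.104), GOLPH3 3 (0.141), Vector 2 (0.0649) or Vector 3 (0.127). It was also lost with a minimum of 1 in every library (limma adjusted p = 0.0636), with a pseudocount of 0.1 (0.0653) and with the replicate number as a block (0.0882), with the direction kept throughout.

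S100A16 (ENSG00000188643, chromosome 1, 153606886 to 153613145, minus strand), the next gene to S100A14 and widely expressed in human tissues, gave 3085, 9137 and 6388 normalized reads for GOLPH3 1, 2 and 3 against 3918, 1467 and 1661 for Vector 1, 2 and 3. Vector 1 lay above GOLPH3 1, so the groups overlapped through that library alone. Its log2 fold change was 1.41 ± 0.45 SE (95% confidence interval 0.43 to 2.39) and did not pass the test (limma adjusted p = 0.107).

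S100A6 (ENSG00000197956, chromosome 1, 153534599 to 153536244, minus strand) encodes calcyclin, which binds the calcyclin-binding protein CACYBP. GOLPH3 1, 2 and 3 held 7704, 24797 and 35297 normalized reads of it, against 7282, 4541 and 6799 for Vector 1, 2 and 3. GOLPH3 2 and 3 stood far above all others, and GOLPH3 1 lay just above the highest library labelled Vector. The log2 fold change was 1.64 ± 0.48 SE (95% confidence interval 0.58 to 2.69, limma adjusted p = 0.0797). On the recovered reads the adjusted p was 0.0452 with edgeR and 0.00176 with DESeq2. The annotation places the antisense transcript BX470102.1 over 517 bases of S100A6. Its mean was 35.7 normalized reads under the GOLPH3 label and 7.90 under the Vector label, and since the counting strand is not given in the sources used here its reads cannot be told apart from those of S100A6.

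S100A4 (ENSG00000196154, chromosome 1, 153543613 to 153550136, minus strand) encodes metastasin, which binds nonmuscle myosin heavy chain IIA. Its levels were 3013, 1806 and 4356 normalized reads across GOLPH3 1, 2 and 3 and 977, 2037 and 1509 across Vector 1, 2 and 3. The groups overlapped because GOLPH3 2 lay below Vector 2, and here GOLPH3 1 lay above GOLPH3 2. The log2 fold change was 0.99 ± 0.38 SE (95% confidence interval 0.17 to 1.81, limma adjusted p = 0.184). The annotated S100A4 locus contains the whole of S100A3 on the same strand, so reads shared by both could have been assigned to either.

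S100A2 (ENSG00000196754, chromosome 1, 153561108 to 153567890, minus strand), known from keratinocytes and other epithelial cells, was among the lower members. Its levels were 81.6, 617 and 389.6 normalized reads across GOLPH3 1, 2 and 3 and 127, 62.4 and 129 across Vector 1, 2 and 3. GOLPH3 1 fell within the range of the libraries labelled Vector, and GOLPH3 2 and 3 lay above all 3 of them. The log2 fold change was 1.42 ± 0.63 SE (95% confidence interval 0.03 to 2.80, limma adjusted p = 0.273).

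S100A10 (ENSG00000197747, chromosome 1, 151982915 to 151994390, minus strand) encodes p11, the partner of annexin A2. GOLPH3 1, 2 and 3 gave 2319, 3990.3 and 4559 normalized reads and Vector 1, 2 and 3 gave 3695, 2617 and 2215, and the groups overlapped. The log2 fold change was 0.33 ± 0.33 SE (limma adjusted p = 0.669), with a 95% confidence interval from -0.40 to 1.05. S100A11 (ENSG00000163191, chromosome 1, 152032506 to 152047907, minus strand), whose protein calgizzarin binds annexin A1, had 1769, 3922 and 4096 against 2909.8, 1429 and 1597 normalized reads. Here too GOLPH3 1 lay below Vector 1. Its log2 fold change was 0.70 ± 0.39 SE (95% confidence interval -0.15 to 1.54, limma adjusted p = 0.390). The antisense transcript AL450992.1 overlaps S100A11 and had means of 7.36 and 1.99 normalized reads.

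S100P (ENSG00000163993, chromosome 4, 6693069 to 6697170, plus strand), a ligand of RAGE that also binds ezrin, was near the limit of the depth. It had 4, 3 and 29 reads in GOLPH3 1, 2 and 3 and 5, 0 and 4 reads in Vector 1, 2 and 3. GOLPH3 3 alone stood above a handful of reads. The fitted log2 fold change of 1.48 (± 0.94 SE, 95% confidence interval -0.58 to 3.54, limma adjusted p = 0.468) depends on the pseudocount, and without GOLPH3 3 it was 0.51 (limma adjusted p = 0.896).

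S100A8 (ENSG00000143546, chromosome 1, 153390032 to 153391188, minus strand) had 0 reads in all 6 libraries. S100A9 (ENSG00000163220, chromosome 1, 153357854 to 153361027, plus strand) had 1 read in GOLPH3 1 and 0 in the other 5. Calprotectin transcripts were therefore not detectable at this depth in either group, and neither gene was tested. Of 8 myeloid markers, 5 were tested by limma, and 0 were called by it, by edgeR or by DESeq2, nor had any an unadjusted p under 0.05. Of all tested genes limma called 5.07% in either direction. The sum of the 8 was 20.6 to 71.5 normalized reads under the GOLPH3 label and 27.5 to 32.9 under the Vector label. MPO and FCGR3B had 0 reads throughout, and PTPRC had 1 read in all 6 libraries together. ITGAM was present in every library, with 12, 20 and 21 reads in GOLPH3 1, 2 and 3 and 14, 13 and 16 in Vector 1, 2 and 3. CSF1R reached 26 reads and CD14 reached 18, both in GOLPH3 3.

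**Figure D2:**
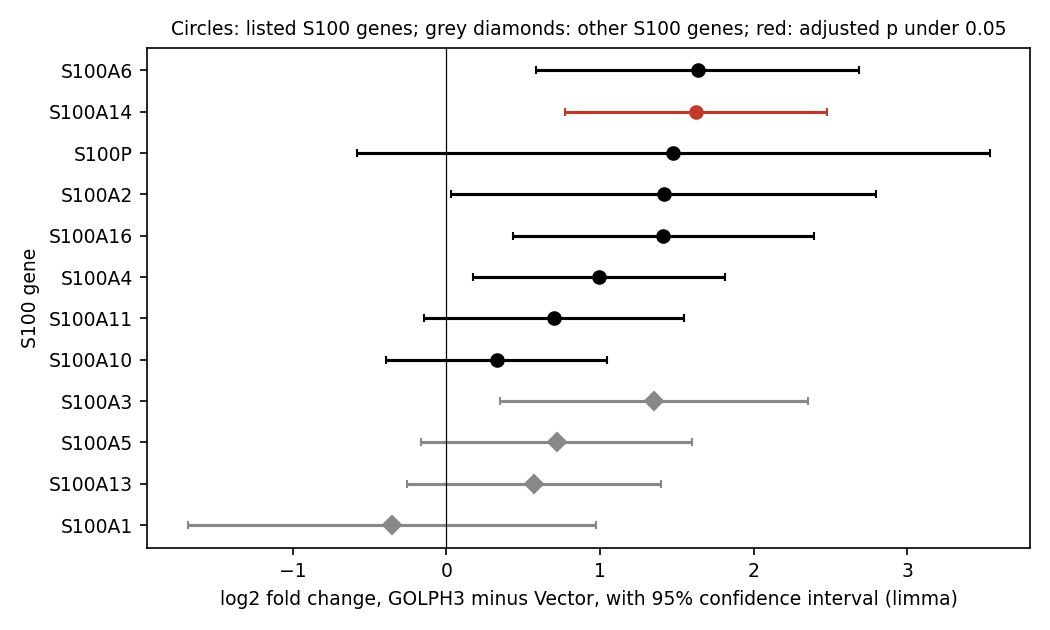
log2 fold change of the 8 tested S100 genes of the list (circles) and of 4 other S100 genes (grey diamonds), libraries labelled GOLPH3 minus Vector, with 95% confidence intervals from limma over 3 libraries per group. S100A14, in red, is the only one with an adjusted p under 0.05, at 1.62, and the intervals of S100P, S100A10, S100A11, S100A1, S100A5 and S100A13 cover 0.

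The libraries kept a similar order across the members. Among the 8 tested genes, GOLPH3 3 was the highest of all 6 libraries in 5 and GOLPH3 2 in the other 3. Vector 2 was the lowest in 5, Vector 3 in 2 and Vector 1 in 1. Within its group GOLPH3 1 was the lowest in 6 genes, and Vector 1 was the highest in 6. The 10 genes together took 0.119%, 0.280% and 0.318% of the normalized reads in GOLPH3 1, 2 and 3 and 0.124%, 0.0785% and 0.0945% in Vector 1, 2 and 3. GOLPH3 1 thus lay below Vector 1 in the summed share, which is led by S100A6 with 33.6% to 57.5% of it. Without GOLPH3 1, limma called 4 of the 8 members higher (S100A2, S100A6, S100A14 and S100A16), against 1.6% of all genes then tested. Without GOLPH3 2, GOLPH3 3, Vector 2 or Vector 3 the call of S100A14 was lost and no other member gained one, and without Vector 1 it remained the 1 call.

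The number after P is shared by GOLPH3 2 and Vector 1 (P12) and by GOLPH3 3 and Vector 3 (P13), and the labels do not say what it stands for. GOLPH3 1 (P8) and Vector 2 (P11) have no counterpart of the same number. Within P12 the differences on the log2 scale were 2.28 for S100A2, 1.77 for S100A6, 1.6 for S100A14, 1.22 for S100A16 and 0.89 for S100A4. They were smaller for S100A11, at 0.43, and for S100A10, at 0.11, and S100P was lower in GOLPH3 2, at -0.82. Within P13 all 8 were higher in GOLPH3 3, with 2.85 for S100P, 2.41 for S100A14, 2.38 for S100A6, 1.94 for S100A16, 1.59 for S100A2, 1.53 for S100A4, 1.36 for S100A11 and 1.04 for S100A10. A total of 7 of the 8 were higher within both numbers, as were 33.6% of all tested genes. Between GOLPH3 1 and Vector 2 the differences ran from -0.17 for S100A10 to 2.40 for S100P, with 0.76 for S100A6, 0.86 for S100A14 and 1.07 for S100A16.

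Each of these differences is between single libraries and has no test of its own. With the P number as a block in limma, 6 of the 8 members were called higher (all but S100A10 and S100P). P8 and P11 were put in 1 block there although the labels do not pair them. In that fit 9.43% of all tested genes were called higher, and the adjusted p was 0.00016 for S100A16, 0.000389 for S100A14 and 0.000524 for S100A6. With the P number as a numeric covariate limma called 4 of the 8 higher, against 3.39% of all genes. In the P12 and P13 libraries alone, a fit chosen after seeing the data that leaves 1 residual degree of freedom per gene, 7 of the 8 were called higher (all but S100P), against 10.9%.

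**Figure D3:**
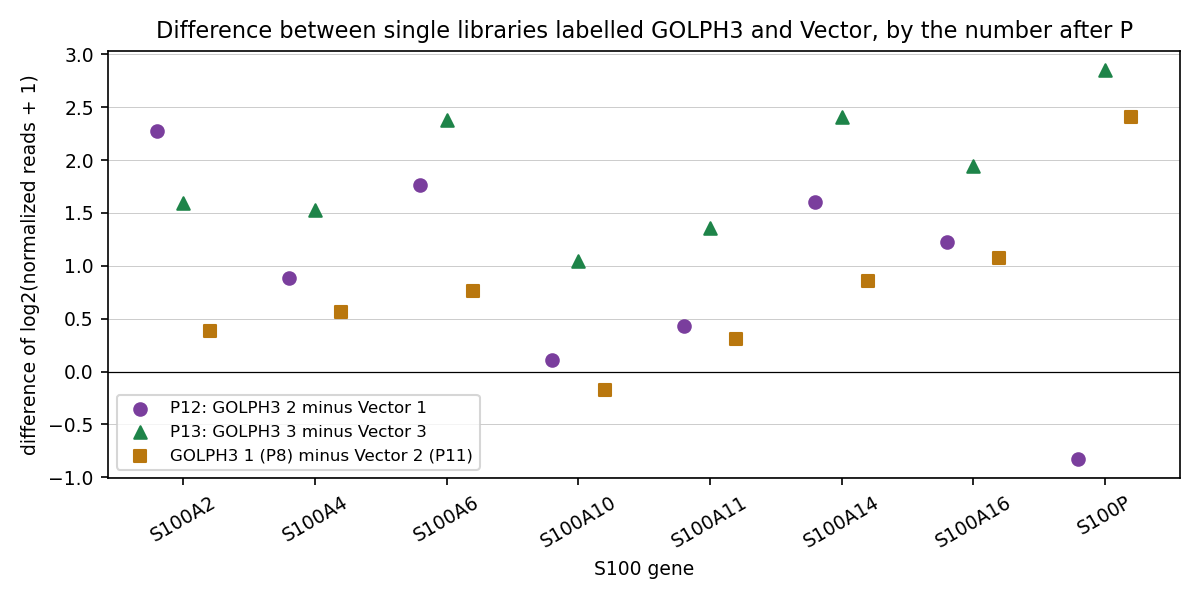
Difference of log2(normalized reads + 1) between single libraries labelled GOLPH3 and Vector for the 8 tested S100 genes: within P12 (circles), within P13 (triangles) and between P8 and P11 (squares). The P13 difference is the highest of the 3 for every gene except S100A2, and S100P turns from -0.82 in P12 to 2.85 in P13.

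Levels of different genes were set side by side per kilobase of annotated exon. On that scale S100A6 had a median of 7717 normalized reads per kb over the 6 libraries (range 4677 to 36352) and was the highest S100 gene in each library. S100A11 followed with 3440.3 (2101 to 6023), and then S100A16 with 2059, S100A10 with 2045, S100A4 with 1874 and S100A14 with 1791. These last 4 exchanged places between libraries, with ranks from 2 to 6, and their order does not stand beyond the spread. S100A2 had a median of 81.5 (39.8 to 394) and S100P of 3.02 (0 to 24.2).

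The list leaves out 10 further S100 genes, of which 4 passed the filter and 0 were called by limma's adjusted p, against 5.07% of all tested genes. S100A3, first known from hair cuticle, gave 89.1, 218 and 195 normalized reads for GOLPH3 1, 2 and 3 against 91.6, 49.3 and 48.9 for Vector 1, 2 and 3. It overlapped through GOLPH3 1 alone (log2 fold change 1.35 ± 0.46 SE, limma adjusted p = 0.133), and it was the 1 of the 4 with an unadjusted p under 0.05, where 7.51% of all genes were higher. DESeq2 called it as well (adjusted p = 0.0358), whereas edgeR called 0 of the 4. S100A5 had 64.4, 101 and 92.9 against 54.6, 51.5 and 47.2 without overlap (log2 fold change 0.72, limma adjusted p = 0.401). S100A13, which takes part in the release of growth factors that lack a signal peptide, was at 0.57 on the same scale (limma adjusted p = 0.486). S100A1, best known from heart muscle, had -0.35 (limma adjusted p = 0.815). S100A1 and S100A13 overlap on opposite strands, so their reads may be mixed. The other 6 (S100A7, S100A7A, S100A12, S100B, S100G and S100Z) had at most 3 reads in any library and were not tested.

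The cluster that runs from S100A6 to S100A1 spans 97.44 kb, and 9 of its S100 genes were tested. Their log2 fold changes ran from -0.35 (S100A1) to 1.64 (S100A6) with a median of 1.35. Of the 9, 8 were above 0, as were 50.9% of all tested genes. By limma's adjusted p 1 was called, against 5.07% of all tested genes in either direction. Within 300 kb on either side, 9 other protein-coding genes were tested. Their log2 fold changes ran from -1.44 to 1.81 with a median of -0.22. Of these 9, 4 were above 0 and 0 were called by limma's adjusted p, set against the same shares of all genes. At an unadjusted p under 0.05, 1 was higher, against 7.51% of all genes, and 1 was lower, and edgeR and DESeq2 also called 0 of those they tested. Named after their values were seen, these include CHTOP (0.003), SNAPIN (-0.22) and ILF2 (-0.24), which follow the cluster on the side of S100A1, and the extremes INTS3 (-1.44, limma adjusted p = 0.0871) and SLC27A3 (1.81, 0.152). PGLYRP3 is the only 1 of the 9 on the side of S100A6. S100A7, S100A7A, S100A8, S100A9 and S100A12 also lie on that side within 300 kb. They had at most 3 reads in any library and were not tested, so the counts of S100 genes here leave them out. PGLYRP3, NPR1 and SLC27A3 were low, with means over the libraries of 3.63, 0.944 and 9.43 normalized reads. Blocked on the P number, limma called INTS3 alone of the 9 other protein-coding genes (lower, adjusted p = 0.0038). In that fit 11.5% of all tested genes were called lower. Genes not coding for protein were left out of these counts. Of them, BX470102.2 inside the cluster was at 1.91 (limma adjusted p = 0.0643) and BX470102.1 over S100A6 at 1.83 (0.226). Blocked on the P number, their limma adjusted p was 0.0076 and 0.028, where 9.43% of all tested genes were called higher. LAPTM4BP1, AL162258.2 and AL358472.5 were at 0.11, 0.56 and -0.25. S100A10 and S100A11, at 0.33 and 0.70, lie on the same chromosome outside this cluster, and S100P lies on chromosome 4. The difference between genes inside and outside the cluster was not tested, since neighbouring genes are not independent.

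**Figure D4:**
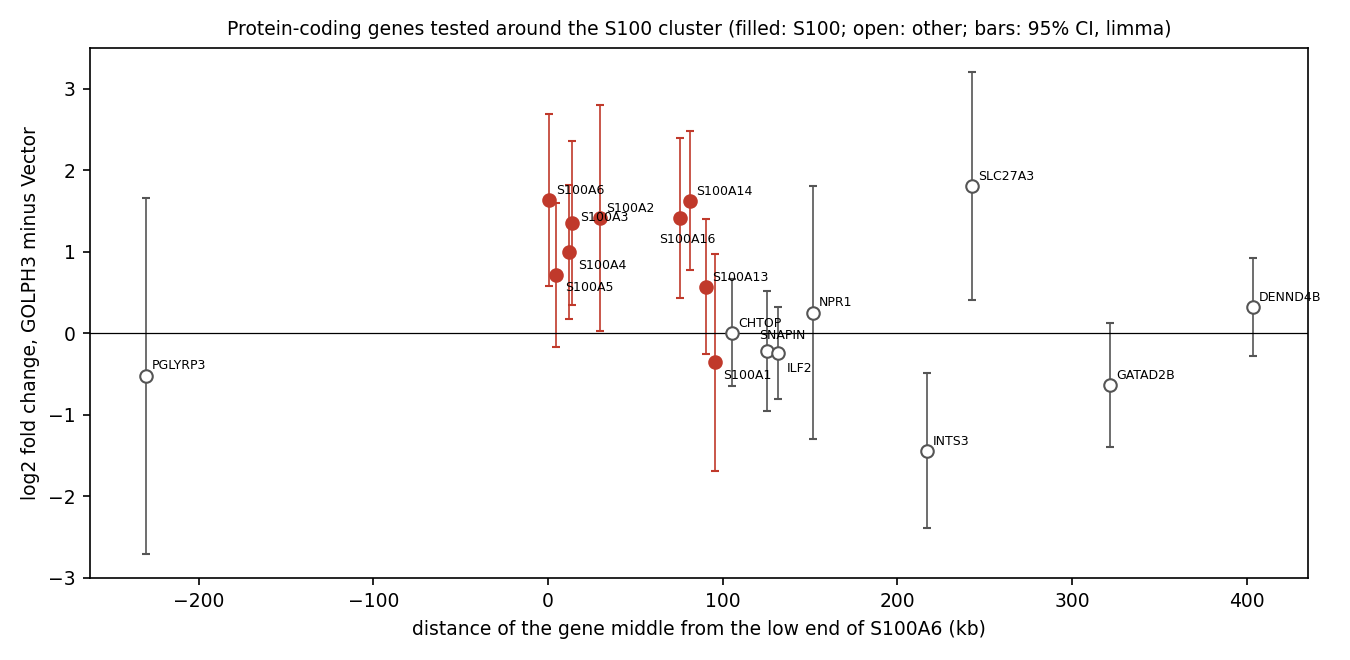
log2 fold change (libraries labelled GOLPH3 minus Vector, 95% confidence intervals from limma, 3 libraries per group) of protein-coding genes against the distance of their middle from the low end of S100A6 in kb. The 9 tested S100 genes (filled) have a median of 1.35 and the 9 other tested genes (open) a median of -0.22. Among the open genes only PGLYRP3 lies on the side of S100A6, and genes not coding for protein are not drawn.

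The proteins and receptors that S100 proteins are known to bind gave a mixed picture. Of 22 such genes, 19 were tested, 0 were called higher and 1 was called lower, where 4.12% of all tested genes were called lower. Their median log2 fold change was 0.11, with 12 of the 19 above 0. At an unadjusted p under 0.05, 4 were higher, against 7.51% of all genes, and 1 was lower. DESeq2 called 2 higher and 1 lower, against 2.67% and 6.1% of all genes, and edgeR called 0 higher and 1 lower, against 1.48% and 5.1%. Blocked on the P number, limma called 5 higher and 2 lower, against 9.43% and 11.5%. The groups did not overlap for 5 of the 19 (DLC1, AHNAK, EZR, MYH9 and ANXA2), and 22% of all tested genes did not overlap in either direction.

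DLC1, whose product binds S100A10, had 0 reads in GOLPH3 1, 2 and 3 against 526, 249.8 and 849 normalized reads in Vector 1, 2 and 3. Taking 3 reads in 1 library labelled GOLPH3 as the limit, it was at least 168-fold lower, and limma called it (adjusted p = 2.7e-06). ZEB2, of the mesenchymal markers, had the same pattern.

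The other 4 partners without overlap had higher values in the libraries labelled GOLPH3 and did not pass the test without a block. Blocked on the P number, the limma adjusted p was 0.00059 for AHNAK, 0.0012 for MYH9, 0.0052 for EZR and 0.0067 for ANXA2. That fit also called ANXA11 higher (log2 fold change 0.73, limma adjusted p = 0.0043, and 0.295 without a block). It called CACYBP, the partner of S100A6, lower (log2 fold change -0.63, limma adjusted p = 0.0113, and 0.357 without a block). The groups overlapped for ANXA11 and for CACYBP. ANXA2, the partner of S100A10, gave 19935, 27119.6 and 29041 normalized reads for GOLPH3 1, 2 and 3 against 16310.1, 14291 and 10279 for Vector 1, 2 and 3, with no overlap (log2 fold change 0.90 ± 0.31 SE, limma adjusted p = 0.137). AHNAK, a large scaffold that binds the complex of S100A10 and annexin A2, had 21863, 46999 and 23982 against 17994, 13033 and 8329 (log2 fold change 1.22, limma adjusted p = 0.107). EZR, which encodes ezrin, the target of S100P, was at 1.02 (limma adjusted p = 0.110). MYH9, the myosin heavy chain bound by S100A4, had 1.01 (limma adjusted p = 0.163). The receptor genes AGER and TLR4 were silent or nearly so. AGER, which encodes RAGE, had 0 reads in 5 libraries and 2 in Vector 3, and TLR4 had 0 reads in the libraries labelled GOLPH3 and 1 to 3 in those labelled Vector.

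**Figure D5:**
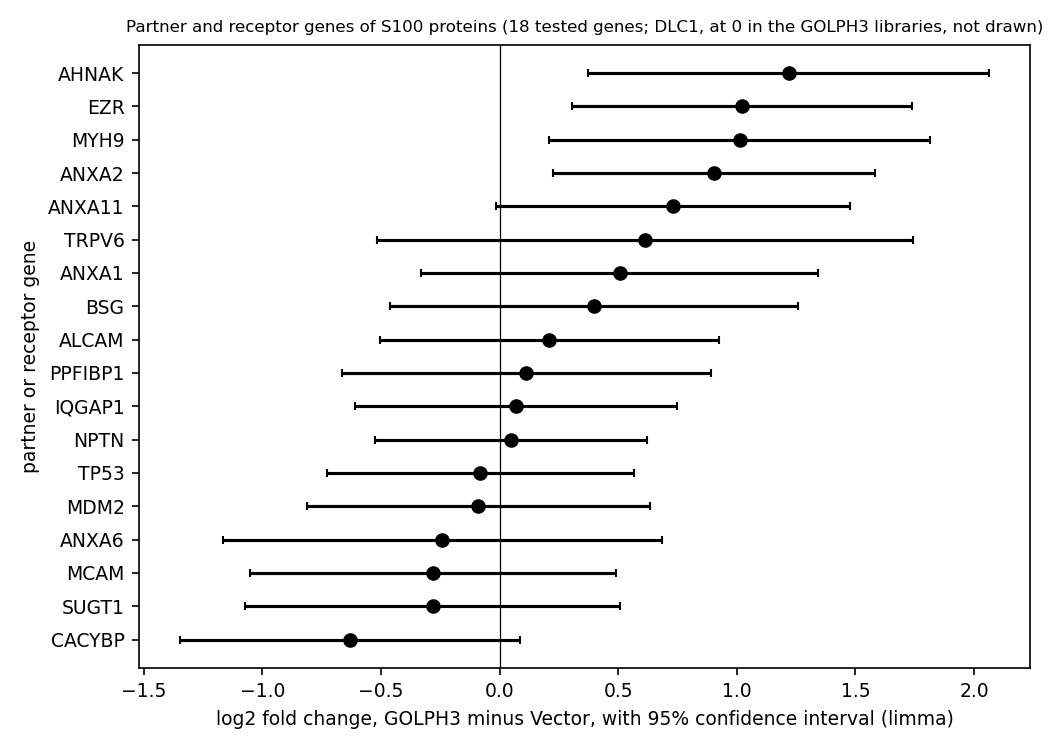
log2 fold change with 95% confidence interval from limma (3 libraries per group) of 18 tested genes for partners and receptors of S100 proteins. AHNAK (1.22), EZR (1.02), MYH9 (1.01) and ANXA2 (0.90) have intervals above 0, and none of the 18 has an adjusted p under 0.05. DLC1 is left out because it had 0 reads in every library labelled GOLPH3.

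The genes of the epidermal differentiation complex, which flank the S100 cluster and serve the cornified layer of skin, were mostly silent. Of 24 listed, which include S100A7 and S100A12, 9 were tested, and 0 were called by limma's adjusted p or by edgeR or DESeq2. Of all tested genes limma called 5.07% in either direction. At an unadjusted p under 0.05, 1 was higher, against 7.51% of all genes. HRNR, a fused-type S100 protein of the skin, gave 12.9, 28.9 and 13.9 normalized reads for GOLPH3 1, 2 and 3 against 3.09, 1.10 and 5.15 for Vector 1, 2 and 3, without overlap (log2 fold change 2.29 ± 0.66 SE, limma adjusted p = 0.0719). FLG, which encodes filaggrin, had 1.54 (limma adjusted p = 0.296), and TCHH, which encodes trichohyalin, had -0.99 (limma adjusted p = 0.589). All 3 were at fewer than 40 reads in every library. Of 7 markers of stratified epithelium, 6 were tested by limma, and 0 were called by it, by edgeR or by DESeq2, with 0 at an unadjusted p under 0.05 and sums of 405 to 1080 normalized reads against 493 to 585. KRT10 led these sums, with 351, 897 and 837 normalized reads in GOLPH3 1, 2 and 3 against 536, 460 and 423 in Vector 1, 2 and 3. KRT1 had 0 reads throughout.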

How the data were processed

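The authors sequenced RNA of 3 samples each of HCT-116 cells with PMSCV-GOLPH3 and with empty PMSCV. Per the file headers and values, their deposited signal is 1 normalized number for each gene in each library. The submitters' processing notes name fastp 0.20.0, HISAT2 2.1.0, featureCounts 1.6.1, Cufflinks, DESeq2 and GRCh38, without a role or order, and the annotation release and counting strand are not given in the sources used here. In every library 100% of nonzero values were whole multiples (tolerance 0.05) of a step of 0.825 to 1.10, so reads were recovered. The table had 60590 rows for 60546 identifiers, the 44 second rows were added, and 58367 (96.4%) matched GENCODE 29, which gave coordinates. No 2 libraries of a group agreed within sampling noise.

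limma 3.58.1 (R 4.3.3, mean-dependent prior variance) was applied to log2(value + 1), with Benjamini-Hochberg adjustment over the 26536 genes that reached 1 in 3 or more libraries, and calls were made at an adjusted p under 0.05. Alternatives were quantile normalization, other filters, a pseudocount of 0.1, edgeR 4.0.16 and DESeq2 1.42.0 on the recovered reads (DESeq2 gave no adjusted p for 13603 genes), the replicate number as a block, the P number as a block or covariate, each library left out, and an unadjusted p. A fit on the P12 and P13 libraries alone was added after the data were seen. limma, edgeR and DESeq2 without a block were also run on simulated counts with known changes, drawn from the means and library sizes of these data. Blocks, the covariate and left-out libraries were not part of that simulation.

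The members and lists were chosen with earlier results of these data known. All members, every other S100 gene passing the filter, and ANXA2, AGER, TLR4 and the 3 genes with the smallest p of the partner and epidermal lists are named. Deviations from the group means correlated at r = -0.232, -0.151 and 0.259 between replicates 1, 2 and 3 of the 2 groups, so the replicate numbers do not pair the samples throughout. The third of these pairs is also the P13 pair. The P12 pair had r = 0.256, and P8 with P11, which share no number, had r = 0.331. Since deviations sum to 0 within each group of 3, these r values depend on each other. The r of P8 with P11 is therefore no separate support for putting them in 1 block.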

Additional observations from a re-analysis of the deposited data

Results flagged for a closer look

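For 2 S100 genes the difference between the libraries labelled GOLPH3 and Vector ran in opposite directions within the 2 P numbers that both groups share. S100P was at -0.82 on the log2 scale within P12 and at 2.85 within P13, and the latter rests on 29 reads in GOLPH3 3. S100A1 was at 0.41 within P12, from 47 reads in GOLPH3 2 and 28 in Vector 1. Within P13 it was at -1.0, from 20 reads in GOLPH3 3 and 51 in Vector 3. Each value compares 1 library with 1 library, and the difference between P12 and P13 was not tested.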

How the results depend on the processing

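The count of members called was 1 in limma, and 1 with quantile normalization or no filter. It was 0 with a minimum of 1 in every library, with a pseudocount of 0.1 or with the replicate block, 2 with edgeR, 4 with DESeq2, with the P number as a covariate or at an unadjusted p under 0.05 with a log2 change over 1, 6 with the P number as a block, 7 in the P12 and P13 libraries alone (a fit chosen after seeing the data that leaves 1 residual degree of freedom per gene), and 0 to 4 with single libraries left out. All log2 fold changes of the 8 members kept their sign. The other S100 genes had 1 call with DESeq2, the P covariate, the unadjusted rule or the P12 and P13 libraries, 2 with the P block and 0 to 1 with single libraries left out. The partner list had 0 calls with a minimum of 1 in every library, 3 with DESeq2, 4 with the P covariate or the unadjusted rule, 7 with the P block (5 higher, 2 lower) or the P12 and P13 libraries (6 higher, 1 lower) and 0 to 2 with libraries left out, since DLC1 was no longer tested without any 1 library labelled Vector. The epidermal list had 1 call with the P block, the P covariate, the unadjusted rule or the P12 and P13 libraries and 0 with libraries left out. Over all genes 1346 were called, 405 with a minimum of 1 in every library, 5549 with the P block, 2399 with the P covariate, 5191 in the P12 and P13 libraries, 3776 by the unadjusted rule and 459 to 1528 with libraries left out. S100A1, at -0.35, turned to 0.093 without GOLPH3 1 and ran from -0.79 to 0.093 with single libraries left out.

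The replicate numbers do not pair the samples throughout. With the replicate block limma called 0 of 8 members, 0 of 4 other S100 genes, 1 of 19 partner genes, 0 of 9 epidermal genes and 1081 of all genes, and the adjusted p of S100A14 was 0.0882. Depth limits S100P, S100A8, S100A9 and the epidermal genes.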

Other observations

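SPRR2D, a small proline-rich protein gene of the epidermal differentiation complex, was noticed after its values were seen. It had 585 normalized reads in GOLPH3 2 and 706 in Vector 1, the libraries that carry P12, against 7.51 to 68.3 in the other 4. SPRR1B had 23.9 and 27.8 in the same 2 libraries and at most 2.13 in the others. The S100 members did not share this order.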
